A study of Sus scrofa with 20 samples.

Results

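IL22RA2 and 6 chains of the class II cytokine receptor family were followed in peripheral blood mononuclear cells (PBMC) of weaned piglets. The members were found by their gene symbol in the annotation of the array, and the 7 genes IL22RA2, IL10RA, IL10RB, IFNAR1, IFNAR2, IFNGR1 and IFNGR2 were read by 9 of the 47845 probe sets. IFNAR1 and IFNAR2 have a pair of probe sets each, and the probe set with the highest mean over all arrays gave the main value of a gene. IL22RA2 and IFNGR1 had been chosen for their difference between the high and the low diet in these same animals. That difference is therefore given for all members as a description without a test.

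German Landrace piglets received diets low (L), medium (M) or high (H) in calcium and phosphorus, and blood was taken at an age of 63 days. The values come from 6 L animals (3 females, 3 males), 7 M animals (4 females, 3 males) and 7 H animals (3 females, 4 males), with 1 array per animal. The males were castrated and all piglets came from a few litters, so that animals of a group may be littermates. M is the control diet with the recommended mineral supply. The H piglets also differed from the others in body weight, feed intake, serum zinc and the state of their skin, which cannot be told apart from the diet. Values are log2 intensities after RMA, the authors' normalization, so a difference of 1 means a doubling and levels of different genes cannot be set against each other.

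Class II cytokine receptors carry the signals of the interleukin-10 family and of the interferons. A ligand binds a pair of chains, and kinases of the JAK family bound to these chains phosphorylate STAT transcription factors. IL10RA and IL10RB form the receptor of IL-10, an anti-inflammatory cytokine, and IL10RB also serves IL-22, IL-26 and the type III interferons as the shared second chain. IFNAR1 and IFNAR2 form the receptor of the type I interferons, and IFNGR1 and IFNGR2 that of interferon gamma. IL22RA2 has no membrane anchor. It is a secreted binding protein that captures IL-22 and keeps it from its receptor, which is known from human and mouse. IL-22 itself acts on epithelial cells, while the binding protein is made by dendritic cells and other myeloid cells. In the pig reference assembly Sscrofa11.1 the protein-coding genes IFNGR1, IL22RA2 and IL20RA follow each other directly, and so do IFNAR2, IL10RB, IFNAR1 and IFNGR2.

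Testing was limited to the 22127 probe sets that exceeded their array's median on 80% or more of the arrays (16 of 20), among them 8 of the 9 member probe sets. The exception was IFNGR2, which was below the array median on all 20 arrays. Array medians lay between 4.29 and 4.46, the mean of the 69 background control probe sets between 3.57 and 4.17, and correlations between arrays between 0.958 and 0.985. Lymphocyte and monocyte markers were measured as the label PBMC implies, with 8 of 8 T cell, 4 of 4 B cell and 7 of 7 monocyte markers above the filter. Markers listed for neutrophils and erythroid cells, which the density gradient should mostly remove, passed it too, with 9 of 10 and 4 of 4. Whether other cells of the samples, such as monocytes, gave the signal of the neutrophil markers cannot be told from these bulk values. Less RNA per cell and fewer cells of a type cannot be told apart in these bulk samples.

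IL22RA2 spread more widely than the other members, from 4.32 to 10.32 over the 20 animals. In the L group the values were 4.32, 4.69, 4.73, 4.75, 6.59 and 9.13. In the M group they ran from 5.02 over a median of 6.77 to 9.19, and in the H group from 6.30 over a median of 7.87 to 10.32. All 7 H animals were above 4 of the 6 L animals, and 3 H animals were above every L animal, but the ranges of the groups overlapped. The L animal at 9.13 (replicate 13) lay just under the third highest H animal at 9.14, and the lowest L animal (replicate 10) was below the median of its array.
The mean was 5.70 ± 1.86 in L (SD, n = 6), 6.98 ± 1.56 in M (SD, n = 7) and 8.14 ± 1.77 in H (SD, n = 7). Adjusted for sex, H minus L was 2.49 (SE 0.85) on the log2 scale, a 5.60-fold difference. M minus L was 1.23 (SE 0.85) and H minus M 1.25 (SE 0.82), so the neighbouring groups in the order L, M, H lay closer together than the SD within a group. Without L replicate 13, H minus L was 3.12 (SE 0.79). Leaving out each animal in turn gave values between 2.09, without H replicate 12, and 3.12.

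**Figure D1:**
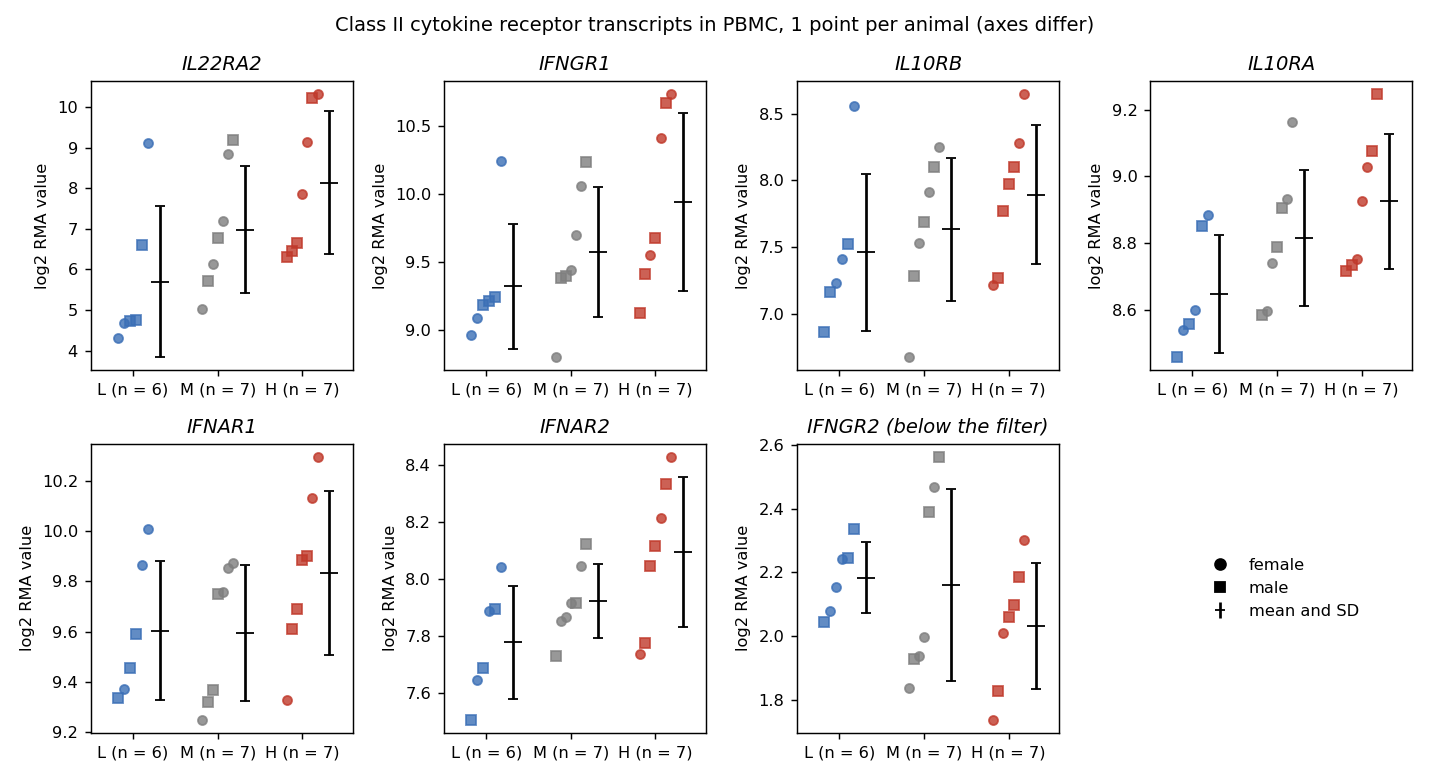
Log2 RMA values of the main probe set of each member (vertical axis) in the L, M and H groups (horizontal axis), with 1 point per animal, circles for females, squares for males, and the mean with its SD beside the points. IL22RA2 spans 4.32 to 10.32 and overlaps between the groups, and IFNGR2 stays between 1.74 and 2.56.

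IFNGR1, the ligand-binding chain of the interferon gamma receptor, had values of 8.97, 9.09, 9.18, 9.22, 9.24 and 10.24 in the L animals. In M they ran from 8.80 over a median of 9.45 to 10.24, and in H from 9.13 over a median of 9.68 to 10.74. Of the 7 H animals 3 exceeded every L animal, and L replicate 13 stood 1 log2 unit above the other L animals. The mean was 9.32 ± 0.46 in L (SD, n = 6), 9.58 ± 0.48 in M (SD, n = 7) and 9.94 ± 0.65 in H (SD, n = 7). H minus L was 0.63 (SE 0.28), M minus L 0.24 (SE 0.28) and H minus M 0.39 (SE 0.27), and H minus L was 0.80 (SE 0.27) without L replicate 13.
IFNGR2, the chain that brings JAK2 to the same receptor, was read by a single probe set between 1.74 and 2.56. On every array this is below the mean of the background controls, so only a bound by the background is known for its transcript. They were 2.18 ± 0.11 in L (SD, n = 6), 2.16 ± 0.30 in M (SD, n = 7) and 2.03 ± 0.20 in H (SD, n = 7), and no test was run on them.

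IL10RB, the chain shared by the receptors of IL-10 and IL-22, followed the same animals. L values were 6.87, 7.17, 7.23, 7.41, 7.53 and 8.56, the last again of replicate 13. M values ran from 6.68 over a median of 7.69 to 8.25, and H values from 7.22 over a median of 7.97 to 8.65. A single H animal was above every L animal. H minus L was 0.45 (SE 0.27), or 0.65 (SE 0.26) without L replicate 13, M minus L was 0.16 (SE 0.27) and H minus M 0.29 (SE 0.27).
IL10RA, the chain that binds IL-10, had the narrowest range of the 6 measured genes, with all animals between 8.46 and 9.25. L animals had 8.46, 8.54, 8.56, 8.60, 8.85 and 8.89. M animals ran from 8.58 over a median of 8.79 to 9.16, and H animals from 8.72 over a median of 8.93 to 9.25. All 7 H animals were above 4 of the 6 L animals, and 4 of them were above every L animal. H minus L was 0.28 (SE 0.12), M minus L 0.16 (SE 0.12) and H minus M 0.12 (SE 0.12).

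IFNAR1, the chain of the type I interferon receptor that binds TYK2, had in its main probe set 9.33, 9.37, 9.46, 9.59, 9.86 and 10.01 in L. It ran from 9.25 over a median of 9.75 to 9.87 in M and from 9.33 over a median of 9.89 to 10.29 in H. The lowest H animal (replicate 18) was below every L animal, while 2 H animals were above all of them. H minus L was 0.25 (SE 0.15) in this probe set and 0.40 (SE 0.15) in the other one, and M minus L was -0.02 (SE 0.15) and 0.04 (SE 0.15). The probe sets had r = 0.876 with each other over the 20 arrays.
IFNAR2, the high-affinity chain of the same receptor, had 7.50, 7.65, 7.69, 7.89, 7.89 and 8.04 in L. It ran from 7.73 over a median of 7.91 to 8.12 in M and from 7.74 over a median of 8.12 to 8.43 in H. Of the H animals 5 were above every L animal, and the other two lay between the third and the fourth lowest L animal. H minus L was 0.32 (SE 0.12) and M minus L 0.14 (SE 0.12). The second probe set of IFNAR2 gave 0.12 (SE 0.15) and -0.17 (SE 0.15), so the direction of M minus L depended on the probe set, and the pair had r = 0.729.

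H minus L was above 0 in all 8 member probe sets that were tested and below 0 in the IFNGR2 probe set. By the main probe sets of the 6 measured genes the median was 0.39, beside a median of -0.02 over all 22127 probe sets, of which 45.9% were above 0. To be called, a probe set had to reach both an unadjusted p below 0.01 and a q after Storey below 0.21 in limma with diet and sex. None of the 8 member probe sets was called, where 0.0271% of all probe sets were, and in none were the ranges of H and L separate, as they were in 0.203% of all. At an unadjusted p under 0.01 alone there was 1 of 8, that of IL22RA2, where 2.09% of all probe sets were. With array weights, where 943 probe sets (4.26%) were called, IL22RA2 and IFNAR2 were among them, and without L replicate 13, where 312 (1.41%) were, IL22RA2 was. Since this contrast chose IL22RA2 and IFNGR1, nothing is read from these counts. The paper did report IL22RA2 and IFNGR1 as differing between L and H under these thresholds. Its model also had litter, and its filter used presence calls.

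**Figure D2:**
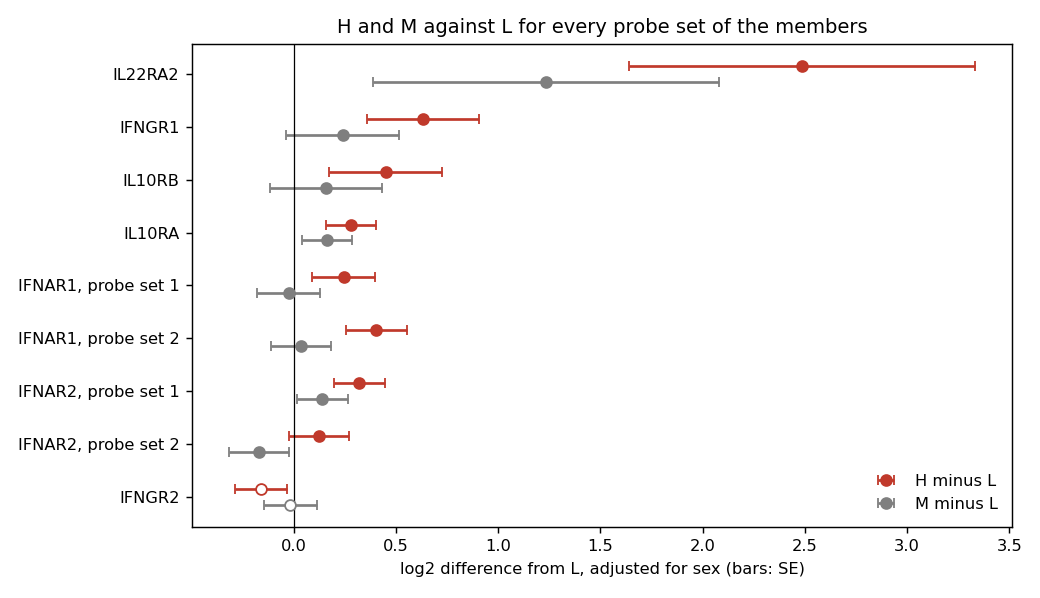
Log2 difference of H (red) and M (grey) from L (horizontal axis), adjusted for sex, with its SE, for each of the 9 probe sets of the members (vertical axis). Open circles mark IFNGR2, which was below the filter. IL22RA2 lies at 2.49 for H and 1.23 for M, and the H values of the other tested probe sets lie between 0.12 and 0.63.

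Contrasts that the choice of the members did not use were tested in the same fit. M against the mean of L and H asks whether the medium diet departs from the midpoint of the others, and by design it is almost uncorrelated with H minus L (0.0394). IL22RA2 was close to that midpoint, with a difference of -0.01 (95% interval -1.50 to 1.48, unadjusted p = 0.991, q = 0.9999 with limma). For the other 5 measured genes the difference lay between -0.15 in IFNAR1 and 0.02 in IL10RA. The second probe set of IFNAR2 had the smallest unadjusted p of the members, with -0.23 (unadjusted p = 0.0772, q = 0.9999 with limma). None of the 8 probe sets was called or had an unadjusted p under 0.05, and of all probe sets 0% were called, 3.2% had an unadjusted p under 0.05 and 0.542% one under 0.01. The interval of IL22RA2 is wide, and a departure of 1 log2 unit either way would lie within it.

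Between the sexes, values of the males were lower in all 6 measured genes, but in none beyond the spread between animals. Males minus females was -0.65 in IL22RA2 (95% interval -2.08 to 0.77, unadjusted p = 0.351 with limma), -0.21 in IFNAR1 (unadjusted p = 0.106 with limma) and -0.04 in IL10RA (unadjusted p = 0.719 with limma). The q was 0.9999 for each. None of the 8 probe sets was called in limma or had an unadjusted p under 0.05, where 0.0181% and 2.68% of all probe sets did. IL22RA2 was 7.27 ± 2.13 in the females (SD, n = 10) and 6.74 ± 1.75 in the males (SD, n = 10).
The difference between H and L was not found to differ between the sexes for any member. For IL22RA2, H minus L in males minus that in females was -1.01 (95% interval -4.59 to 2.56, unadjusted p = 0.560, q = 0.837 with limma). For IFNGR1 it was -0.29 (unadjusted p = 0.607 with limma). None of the 8 probe sets was called or had an unadjusted p under 0.05, and of all probe sets 0% and 5.12% did. With 3 or 4 animals of a sex per diet these intervals are wide, and L replicate 13 alone moved the IL22RA2 value to -2.56.

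Within the diets the members rose and fell together from animal to animal, with IL10RA apart. After removal of the diet means IL22RA2 and IFNGR1 had r = 0.929 and rho = 0.899 over the 20 animals (permutation test within diets, two-sided, p = 1e-05 for both, the smallest it can give). Adjusted over the 27 relations computed, p was 0.000135 for r. Within the groups r was 0.930 in L (n = 6), 0.956 in M (n = 7) and 0.940 in H (n = 7), and it was 0.911 without H replicates 12 and 17, the animals farthest from the median of IFNGR1. The test takes animals of a diet as exchangeable although some are littermates, and both values of a point come from the same array.
IL22RA2 and IL10RB had r = 0.812 and rho = 0.731 (permutation test, adjusted p = 0.000424 and 0.00324), and r = 0.701 without H replicate 17 and L replicate 13. With IFNAR1 and IFNAR2, IL22RA2 had r = 0.621 and 0.656 (permutation test, adjusted p = 0.0112 and 0.00758). IFNGR1 and IL10RB had r = 0.874, IL10RB and IFNAR1 0.832, and the receptor partners IFNAR1 and IFNAR2 0.770 (permutation test, adjusted p from 0.000202 to 0.00105). IL10RA had r between -0.20 and 0.37 with the other members (permutation test, adjusted p from 0.175 to 0.981), and its r with its receptor partner IL10RB was 0.0059. In IFNAR2 the relations were looser in M, where r was 0.403 with IL22RA2 and 0.434 with IFNAR1 (n = 7).

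**Figure D3:**
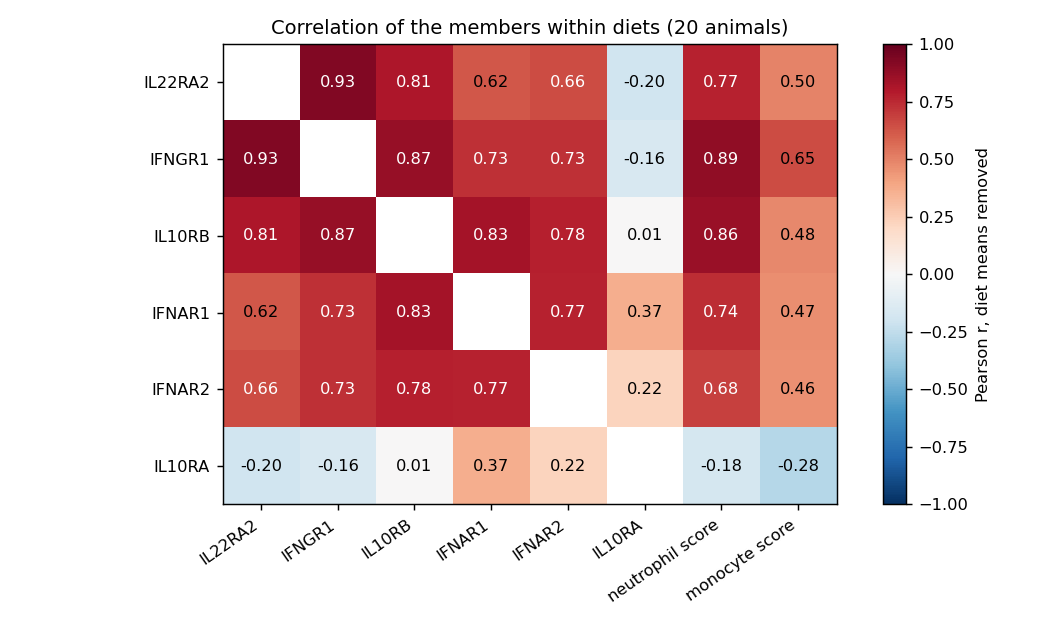
Pearson r between the 6 measured members (rows and columns) and with both marker scores (last columns) over 20 animals after removal of the diet means. IL22RA2 and IFNGR1 have 0.93, while IL10RA has values between -0.28 and 0.37.

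The same 6 animals had the highest values of IL22RA2, IFNGR1 and IL10RB, namely H replicates 3, 12 and 17, M replicates 14 and 16, and L replicate 13. They were also the 6 with the highest neutrophil marker score. For IL22RA2 the lowest of them was at 8.84 and the next animal, H replicate 18, at 7.87. For IFNGR1 these values were 10.06 and 9.70. The number 6 was set after the values had been seen, so the match is a description. Of these animals 4 were among the highest 6 for IFNAR1 and for IFNAR2, and 2 for IL10RA.

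Marker scores, the mean deviation of the markers of a cell type from their own means, were compared because bulk PBMC samples are mixtures of cell types. All 9 measured neutrophil markers had a value above 0 in H minus L, with a median of 0.80, and all 7 monocyte markers did, with a median of 0.75. The paper had already listed CSF3R and CXCR2 of the neutrophil markers as differing between L and H in these animals. Their direction, and their part in the neutrophil score, is therefore not independent evidence. All 8 T cell markers (median -0.36) and all 4 B cell markers (median -0.36) were below 0. So were all 4 erythroid markers (median -0.44) and 4 of 6 NK and cytotoxic markers (median -0.08). Of the platelet markers 3 of 4 were above 0 (median 0.20). The neutrophil score ran from -1.004 to 0.57 in L, from -1.05 to 0.83 in M and from -0.48 to 1.097 in H. The monocyte score ran from -1.11 to 0.14, from -0.77 to 0.51 and from -0.21 to 1.07. The dendritic cell score ran from -0.26 to 0.29 in L, from -0.34 to 0.22 in M and from -0.08 to 0.39 in H, with 5 of 6 of its markers above 0 (median 0.18). The neutrophil granule gene LTF did not pass the filter. The neutrophil score is named after its list of markers and is not a measure of neutrophil number.
Within diets the neutrophil score had r = 0.887 with IFNGR1, 0.861 with IL10RB and 0.773 with IL22RA2 (permutation test, adjusted p from 0.000135 to 0.00105). With the monocyte score r was 0.649 for IFNGR1 and 0.495 for IL22RA2 (permutation test, adjusted p = 0.00918 and 0.0619). Other cell types moved with the members too, with diet and sex removed and no test. The T cell score had r = -0.69 with IL22RA2 and -0.71 with IFNGR1, and the NK and cytotoxic score -0.61 with both. The dendritic cell score had 0.697 with IFNAR1 and 0.659 with IL10RB, but 0.302 with IL22RA2. The B cell score had 0.628 with IL10RA. With only the diet means removed, IL10RA had r = -0.18 with the neutrophil and -0.28 with the monocyte score (permutation test, adjusted p = 0.512 and 0.312). For IL22RA2 and the monocyte score r was 0.108 in L (n = 6), 0.616 in M (n = 7) and 0.722 in H (n = 7).
With both scores as covariates, H minus L was 0.85 (SE 0.68) in IL22RA2, -0.02 (SE 0.18) in IFNGR1, -0.07 (SE 0.18) in IL10RB, -0.01 (SE 0.15) in IFNAR1, 0.14 (SE 0.13) in IFNAR2 and 0.37 (SE 0.15) in IL10RA. IL10RA alone was not smaller than without the scores. Whether the cell mixture accounts for the differences was not tested.

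**Figure D4:**
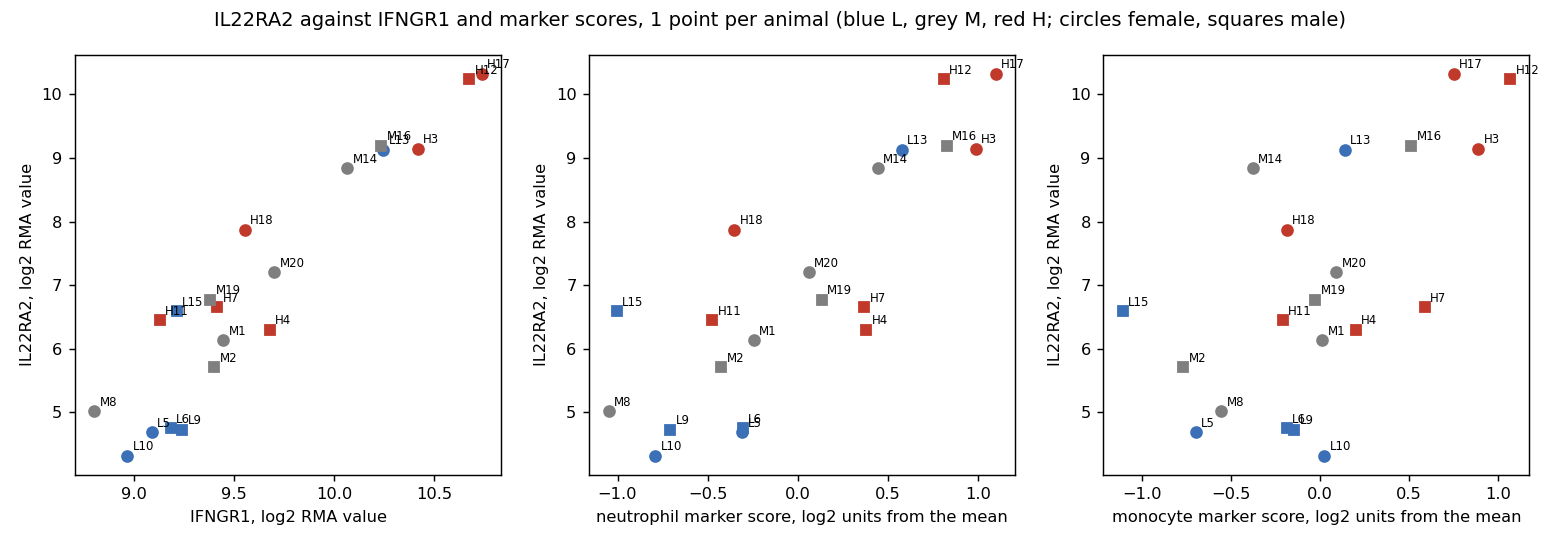
Log2 RMA value of IL22RA2 (vertical axes) against that of IFNGR1, the neutrophil score and the monocyte score (horizontal axes, left to right) in the 20 animals, labelled by group and replicate. The 6 animals above 8.80 in IL22RA2 are also the highest in IFNGR1 and in the neutrophil score, while L replicate 15 has 6.59 at the lowest monocyte score.

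**Figure D5:**
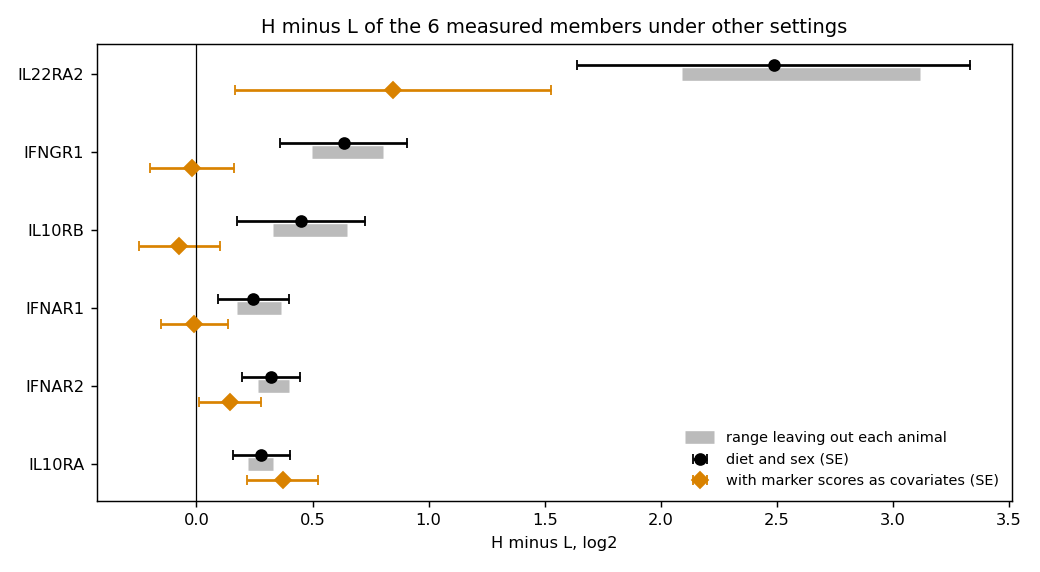
H minus L on the log2 scale (horizontal axis) of the 6 measured members with diet and sex in the fit (black, with SE), its range when each animal was left out in turn (grey bar), and its value with the neutrophil and monocyte scores as covariates (orange, with SE). IL22RA2 goes from 2.49 to 0.85 and IL10RA from 0.28 to 0.37.

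The genes whose values were most like those of IL22RA2 were searched among 9370 named genes with a measured probe set. Over the 20 arrays these were SOD2, the mitochondrial superoxide dismutase, with r = 0.952, ACSL4, which activates arachidonic acid, with 0.945, IFNGR1 with 0.940, the transcription factor SP3 with 0.929 and RNF13 with 0.910. After removal of diet and sex the first were again SOD2 (0.941), ACSL4 (0.937) and IFNGR1 (0.927). IFNGR1 was in turn most like SP3 (0.959), ACSL4 (0.953) and TSPAN2 (0.936). IL10RB was most like SDCBP (0.966), NDEL1 (0.954) and USP30 (0.937).
By the same measure, with diet and sex removed, IFNAR1 was most like SSFA2 (0.895), CD55 (0.880), an inhibitor of complement, and HELZ (0.866). IFNAR2 was most like HMGB2 (0.877), the zinc transporter SLC39A1 (0.862) and the TNF receptor TNFRSF1B (0.847). IL10RA was most like INPPL1 (0.827), a phosphatase of inositol phospholipids, PRPSAP1 (0.825) and SIPA1L3 (0.804). Among the first 3 genes of each of the 6 measured members, ACSL4 was the only shared one, by IL22RA2 and IFNGR1. Further down, SP3 also had 0.916 with IL22RA2, SOD2 0.934 with IFNGR1 and HELZ 0.831 with IFNAR2. These are descriptions over 20 arrays, the highest of 9370 values each. For IFNGR2, below the filter, the genes were MIR30C (0.796), NPTXR (0.782) and CABLES2 (0.781).

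Of the listed ligands of the class II receptor family, not only of the members, 9 of 14 were on the array and 1, IL10, passed the filter. IL10 was 5.58 ± 0.51 in L (SD, n = 6), 5.54 ± 0.51 in M (SD, n = 7) and 5.57 ± 0.36 in H (SD, n = 7), with H minus L of -0.03 (SE 0.24), a difference below the spread between animals. IL22, the ligand that IL22RA2 captures, lay between 2.05 and 2.77 and below the array median on all 20 arrays. IFNG was above the array median on 7 of 20 arrays, with 4.27 ± 0.60 in L (SD, n = 6), 4.75 ± 0.88 in M (SD, n = 7) and 4.04 ± 0.70 in H (SD, n = 7).
Of the other class II chains IL22RA1, the membrane receptor of IL-22 on epithelia, passed the filter with H minus L of -0.10 (SE 0.17). It was 4.94 ± 0.23 in L (SD, n = 6), 5.01 ± 0.30 in M (SD, n = 7) and 4.84 ± 0.37 in H (SD, n = 7). These low values come from 1 of its probe sets, which exceeded the array median on 19 of 20 arrays. The other IL22RA1 probe set averaged 3.93, within the range of the background controls, and exceeded the median on 0 arrays. IL20RA, the gene next to IL22RA2 in the reference assembly, was below the array median on all arrays and, like IL22 and IFNG, was named after its values had been seen, with 3.13 ± 0.21 in L (SD, n = 6) and 3.07 ± 0.25 in H (SD, n = 7).

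Downstream of the receptors, 7 of 9 measured signalling partners had H minus L above 0, with a median of 0.27. None was called in limma, where 0.0136% of all probe sets were called higher, 4 were higher at an unadjusted p under 0.05, where 4.52% of all probe sets were, and 2 were higher at an unadjusted p under 0.01, where 1.25% of all probe sets were. These were JAK2, the kinase of IFNGR2, with 0.58 (SE 0.18) and SOCS3, a feedback inhibitor of STAT3 signals, with 0.93 (SE 0.28). JAK1, which serves all these receptors, had 0.07 (SE 0.13) and STAT3 0.31 (SE 0.13).
Of 12 measured targets of type I interferon all had H minus L above 0 (median 1.16), and none was called with limma. At an unadjusted p under 0.05, 10 were higher (4.52% of all probe sets), and 5 of these were past 0.01 (1.25% of all). The values furthest from 0 were those of OAS1, an enzyme that senses viral RNA, with 1.59 (SE 0.37), IFIT2 with 1.44 (SE 0.35) and IFIT3 with 1.29 (SE 0.34). Of 8 measured targets of interferon gamma 5 were above 0 (median 0.09), none was called and 1 was higher at an unadjusted p under 0.05 with limma (4.52% of all probe sets). Among them CXCL10, a chemokine for T cells, had 0.60 (SE 0.92), TAP1, the peptide transporter of MHC class I, 0.43 (SE 0.19) and IRF1 0.18 (SE 0.17). Of 8 measured IL-10 response genes 7 were above 0 (median 0.51), none was called, 4 were higher at an unadjusted p under 0.05 with limma (4.52% of all probe sets), and SOCS3 and IL4R, the receptor of IL-4, were past 0.01 (1.25% of all). IL4R had 0.63 (SE 0.18) and NFIL3 0.65 (SE 0.37). JAK2, SOCS3, IL4R, HMOX1, OAS1, IFIT3 and DDX58 of these lists had been chosen on these animals before, so their counts are not independent evidence, and the neutrophil and monocyte markers moved in the same direction (median 0.80 and 0.75). The part of these cells in the differences was not tested. H minus L in males minus that in females had an unadjusted p under 0.05 with limma in 5 of 9 signalling partners, 5 of 8 interferon gamma targets and 8 of 12 type I interferon targets, all higher in males, where 3.8% of all probe sets were, and none of them was called (0% of all probe sets).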

How the data were processed

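RNA of PBMC, separated on a density gradient, was hybridized to the Affymetrix snowball pig array in 1 colour. The authors read the arrays with GCOS 1.1.1 and deposited log2 values after RMA, which corrects the background, gives every array the same distribution and combines the probes of a set. It would hide most of a shift common to all transcripts. One array had been left out in quality control. The number of arrays limits the precision.

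Gene names are those of the platform annotation, with 26426 probe sets under 1 name, 21419 without a name and 123 controls left out. No genome build of the array is given in the sources used here, so no positions are printed, and sequences were not used here. The filter on the array median stands in for the presence calls of the methods. The fit used limma 3.58.1 (R 4.3.3) with the 3 diets and sex as terms, and the interaction over the 6 cells of diet and sex. The labels do not give the litter, which the methods had as an effect. The call rule, an unadjusted p under 0.01 with a Storey q under 0.21, is that of the methods. With it the paper reported many more probe sets for L against H than the 6 called here. IL22RA2 and IFNGR1 were among its genes. The part of the litter term and of the filter in this gap was not tested. Relations between members were tested by 100000 permutations within diets, adjusted by Benjamini-Hochberg over 27 relations. The limma fit and the call rule were tested on simulated data with a shift added to the M group. This covered only M against the mean of L and H, and the other steps were not tested in this way. The members, the lists and the contrasts were chosen with earlier results of these data known. Named are all members, some of the ligands, other chains and signalling partners above the filter, up to 3 targets per list with the largest absolute H minus L, and the 3 genes most alike to a member (5 for IL22RA2). Alternatives were no filter, a stricter filter (75th percentile), no sex, array weights, array centring, no moderation, marker scores as covariates, the mean of all probe sets, and leaving out each of the 20 animals. Figures were drawn with matplotlib 3.10.9, and tables were read with pandas 2.3.3 under Python 3.11.15.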

Additional observations from a re-analysis of the deposited data

Results flagged for a closer look

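IFNGR1 in the L group was marked for a closer look because the highest of the 6 animals, replicate 13, stood far from the others. Its value was 10.24 and the next was 9.24, and this gap made up 0.784 of the range of the group, above the critical 0.625 of Dixon's test for 6 samples. The same animal was the highest L animal for IL22RA2 (9.13) and IL10RB (8.56), and its neutrophil score was 0.57, the highest of the L group. Of 21 groups examined this was the single one, and chance marks about 1 in 20.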

How the results depend on the processing

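The number of probe sets called in H minus L was unstable. It was 6, but 0 without the filter, without sex, with array centring or with the neutrophil and monocyte scores, 1 without moderation, 3 with the stricter filter and 943 with array weights. Leaving out 1 animal gave 0 to 312, of which 312 was reached when L replicate 13 was left out, 125 for H replicate 18 and 57 for L replicate 10. The number called for sex was 4, but 17 without the filter and 7 with array weights, and 2 to 5 with an animal left out. For the interaction it was 0, and 0 to 29 with an animal left out (29 without L replicate 5).

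H minus L of the members kept its sign with each animal left out. With the marker scores IFNGR1 went from 0.63 to -0.019. Some differences near 0 changed sign. In M against the mean of L and H these were IL22RA2 without sex (0.061; -0.52 to 0.36 with an animal left out), IL10RA with the marker scores (-0.0054; -0.030 to 0.066), IFNAR2 with array weights (0.00196; -0.069 to 0.010), and, with an animal left out, IL10RB (-0.18 to 0.10) and IFNGR1 (-0.23 to 0.062). In the interaction these were IFNAR1 with the mean of all probe sets (-0.041; -0.15 to 0.33) and, with an animal left out, IL10RA (-0.011 to 0.21), IL10RB (-0.14 to 0.57) and IFNAR2 (-0.092 to 0.25). The cause was not tested. No member was called under any alternative in the 3 tested contrasts. In H minus L, the contrast that chose IL22RA2 and IFNGR1, IL22RA2 and IFNAR2 were among 943 probe sets (4.26%) called with array weights. IL22RA2 was also among the 312 (1.41%) called without L replicate 13. Nothing is read from these calls. Further, IL22RA2 did not pass the stricter filter, which gives it no value there. No paired analysis was possible because the replicate numbers are unique to each animal. Signal near background limits IFNGR2 and the low L values of IL22RA2.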
